A study of Mus musculus with 2 samples.

Results

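The cells described here are 350 T and natural killer (NK) cells of a mouse brain tumour with UMIs of the proliferation genes Mki67 and Top2a, called cycling by that rule: 179 in the control library and 171 in the metformin library, out of 11647 deposited barcodes. They were chosen by raw counts of unique molecular identifiers (UMIs, each standing for 1 captured RNA molecule). A barcode needed at least 300 detected genes and at most 10% mitochondrial UMIs, which 5435 control and 4606 metformin barcodes met. It then needed at least 2 UMIs of Cd3d, Cd3e, Cd3g and Ncr1 together, at most 3 of C1qa, C1qb and C1qc, and at most 1 of Cd79a, which left 2274 control and 2140 metformin T and NK cells. Cells of this gate with at least 3 UMIs of Mki67 and Top2a together were called cycling, and the other 2095 and 1969 were called resting. Each cell was placed in the first class whose rule it met: CD8 (at least 2 UMIs of Cd8a and Cd8b1), regulatory T or Treg (at least 1 of Foxp3), CD4 (at least 1 of Cd4), NK (at least 1 of Ncr1) and other T. The values of Mki67, Top2a and the class genes selected the cells, so they are descriptions and support nothing.

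C57BL/6 mice of both groups received GL261 glioma cells by intracranial injection, and on day 20 the tumour region of the brain was dissected and its leukocytes with high CD45 were sorted. One group drank control water (DW in the labels) and the other water with metformin, a biguanide drug known to inhibit mitochondrial complex I. Each group is 1 library made with 10x Genomics 3' chemistry, and the number, age and sex of the mice, the metformin dose and the sort gates are not stated in the labels. With 1 library per group there was no replicate check and no test. All intervals are 95% and cover counting error only, not mice or sorts, and those of gene ratios do not cover the spread between cells either.

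A T cell that meets its antigen leaves quiescence, grows and divides several times, and quiescence genes such as Klf2, Tcf7 and Il7r fall silent as it does. Before S phase, E2F factors switch on the genes that license and copy DNA (Mcm2 to Mcm7, Pcna) and make nucleotides (Rrm2, Tyms). Later the DREAM, B-MYB and FOXM1 complexes control genes of G2 and mitosis, such as Cdk1, Birc5 (survivin) and Ube2c, through promoter elements called the cell cycle genes homology region (CHR) and the CCAAT box. Mki67, which coats mitotic chromosomes, and Top2a, which untangles DNA, belong to this late group.

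The promoters of 3 late genes are shown: those that chose the cells (Mki67, Top2a) and Cdk1, which was used with Birc5 to check them. Each is the 250 bases before the RefSeq start site in build GRCm38.p6 (mm10), read 5′ to 3′ on the gene's strand, with the letters of CHR (TTTGAA) and CCAAT in capitals on either strand, where the reverse strand reads TTCAAA and ATTGG. Mki67 lies at chr7:135716380-135716629, Top2a at chr11:99024190-99024439 and Cdk1 at chr10:69352913-69353162, all on the minus strand.
Mki67: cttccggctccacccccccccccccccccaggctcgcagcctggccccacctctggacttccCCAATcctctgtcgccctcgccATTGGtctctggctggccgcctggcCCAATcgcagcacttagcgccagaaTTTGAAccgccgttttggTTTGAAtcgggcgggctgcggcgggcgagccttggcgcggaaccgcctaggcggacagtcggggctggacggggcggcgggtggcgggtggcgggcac
Top2a: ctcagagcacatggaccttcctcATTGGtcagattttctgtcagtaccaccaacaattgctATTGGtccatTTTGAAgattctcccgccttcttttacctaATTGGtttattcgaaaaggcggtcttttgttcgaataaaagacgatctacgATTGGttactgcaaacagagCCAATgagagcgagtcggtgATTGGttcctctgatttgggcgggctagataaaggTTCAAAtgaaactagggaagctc
Cdk1: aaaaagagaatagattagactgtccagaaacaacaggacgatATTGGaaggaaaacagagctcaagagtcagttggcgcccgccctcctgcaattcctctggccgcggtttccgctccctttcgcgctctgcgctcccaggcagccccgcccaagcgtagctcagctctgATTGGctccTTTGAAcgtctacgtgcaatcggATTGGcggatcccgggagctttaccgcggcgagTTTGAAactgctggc
Mki67 held 2 CHR and 3 CCAAT matches, Top2a 2 and 6, and Cdk1 2 and 3, while the Birc5 window, not shown, held no match of either. Of the 42 genes on the G2/M list used below, 36 had a window: 28 (77.8%) held CCAAT, 9 (25%) CHR and 8 (22.2%) both. Among all 27025 genes with a window the shares were 34.5%, 16.3% and 5.73%. These are matches of letters, not shown to be sites. On the S list only 33 of 44 genes had a window; with so much of the list missing, the check is void there, and the lists are not compared.

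The check of the label found that not all selected cells carried a division programme. Cdk1 and Birc5, marker genes outside the rule, were scored as at least 1 UMI of either. Among cells with 5 or more Mki67 and Top2a UMIs, 83.0% of 106 control and 86.1% of 108 metformin cells had such a UMI, and with 10 or more 98.6% and 98.7%. Just inside the threshold, at 3 UMIs, the shares were 17.4% of 46 and 29.3% of 41, and just outside it, at 2 UMIs, 10.2% of 137 and 16.3% of 104. At 0 UMIs they were 3.69% and 4.41%, with fewer UMIs per cell (medians 7152.5 and 7554.5, against 17742 and 21503 at 5 or more). The S and G2/M lists held 44 and 42 genes, without Mki67 and Top2a. Their UMIs, counted here without Cdk1 and Birc5, had medians of 97.5 and 109 per 10000 UMIs at 5 or more. At 3 the medians were 11.9 and 13.6, close to the 9.77 and 9.54 of cells with 0.

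The phase UMIs split the selected cells into separate ranges, as the plot of marker UMIs against phase UMIs shows. A level of 30 per 10000, set after seeing this, divided them: 109 of 179 control cells (60.9%) and 113 of 171 metformin cells (66.1%) were above it and are called phase-rich. Only 6 and 3 lay between 25 and 35. In the phase-poor remainder (70 and 58 cells), Cdk1 and Birc5 were at 2.30 CPM each (UMIs scaled to a common total of all UMIs in the group) in control and 9.33 and 10.7 CPM in metformin, against 214 and 424 CPM, and 230 and 477 CPM, in phase-rich cells. Both genes count in the full G2/M list behind the level of 30, so this contrast follows from the split and supports nothing. The phase-poor cells had 134 and 124 CPM of Mki67, a gene at 14.4 and 10.2 CPM in phase-poor resting cells. By phase UMIs alone, the label "cycling" holds for about 6 or 7 in 10 of the selected cells. Results that differ between all selected and phase-rich cells are given for both. The threshold also left out 49 control and 60 metformin phase-rich cells of the gate, most of whose phase UMIs were of the S list: 14.9% and 15.7% of their phase UMIs were G2/M.

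**Figure D1:**
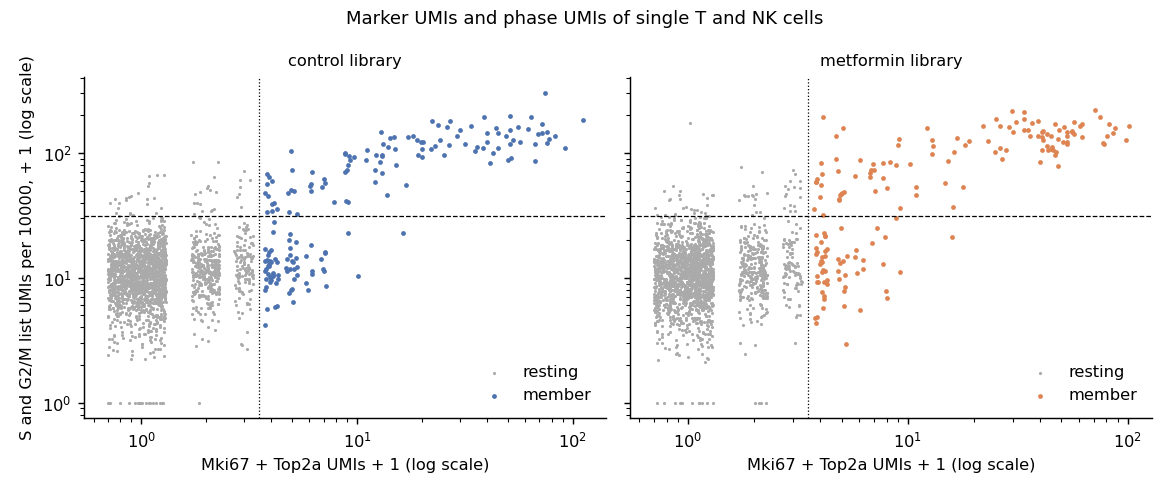
Each point is 1 T or NK cell, with Mki67 and Top2a UMIs on the x axis and S and G2/M list UMIs per 10000 on the y axis (1 added to both, log scales). The dotted line is the threshold of 3 UMIs and the dashed line the level of 30 per 10000. The selected cells form an upper group and a lower group that overlaps the resting cells.

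Cycling cells were deep cells. Their median UMIs were 15109 in control and 18018 in metformin, 2.05 and 2.30 times those of resting cells (7377 and 7840). Deeper cells reach 3 UMIs more easily, so the threshold itself favours them. Scrublet marked 67 (1.23%) and 38 (0.825%) of all kept cells as doublets, 0 of them selected cells. The libraries shared 9 barcodes, and no 2 selected cells shared one.

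Treg cells had the highest cycling share in each library and NK cells, among the named classes, the lowest. In control, 37 of 251 Treg cells were cycling (14.7%, interval 10.6 to 19.7), 64 of 616 CD4 (10.4%, 8.09 to 13.1), 65 of 752 CD8 (8.64%, 6.73 to 10.9) and 6 of 258 NK (2.33%, 0.858 to 4.99). In metformin the shares were 35 of 227 Treg (15.4%, 11 to 20.8) and 83 of 737 CD8 (11.3%, 9.07 to 13.8). They were 33 of 411 for CD4 (8.03%, 5.59 to 11.1) and 9 of 375 for NK (2.40%, 1.10 to 4.51). The ratio of CD8 over CD4 had an interval that held 1 in control (0.580 to 1.19) and in metformin (0.927 to 2.17). No order of CD8 and CD4 is therefore read in either library. Treg cells cycled 1.71 times as often as CD8 cells in control (1.11 to 2.59), and 1.37 times in metformin, where the interval held 1 (0.895 to 2.06). The CD8 share was 3.72 times the NK share in control (1.62 to 10.5), where 3 of the 6 cycling cells of the NK class had at least 2 UMIs of the T cell receptor gene Trac, and 4.69 times in metformin (2.36 to 10.6). Other T cells, which include γδ T cells, cycled at 1.76% and 2.82%. Treg over CD4 was 1.42 (0.920 to 2.16) in control and 1.92 (1.16 to 3.19) in metformin. Depth bears on the class too, since 1 UMI of Foxp3 or Cd4 sufficed: cycling Treg cells were 3.59 and 2.48 times as deep as resting ones, and exactly 1 Foxp3 UMI was found in 10.8% and 8.57% of cycling against 32.2% and 25.5% of resting Treg cells. The part of depth in the order of the classes was not tested. These are shares of sorted cells; numbers of cells per mouse were not measured.

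Between libraries the cycling share of all T and NK cells was nearly the same, 7.87% and 7.99% (ratio 1.02, 0.818 to 1.26). No class differed beyond counting error by the Mki67 and Top2a rule. The CD8 ratio of metformin over control was 1.30 (0.930 to 1.83) and the CD4 ratio 0.773 (0.492 to 1.19). The CD8 ratio depended on how cycling was measured. It was 1.85 (1.25 to 2.76) with at least 2 UMIs of Cdk1 and Birc5, 1.67 (1.01 to 2.80) with every cell thinned to 3662 UMIs, and 1.69 (1.20 to 2.40) when phase-rich cells were counted in place of the rule (56 of 752 and 93 of 737 CD8 cells, 7.45% and 12.6%). With phase-rich selected cells only, 43 and 62, it was 1.47 (0.981 to 2.22). The Treg ratio was 1.05 (0.640 to 1.71) by the rule and 1.05 (0.645 to 1.70) by phase-rich cells.

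**Figure D2:**
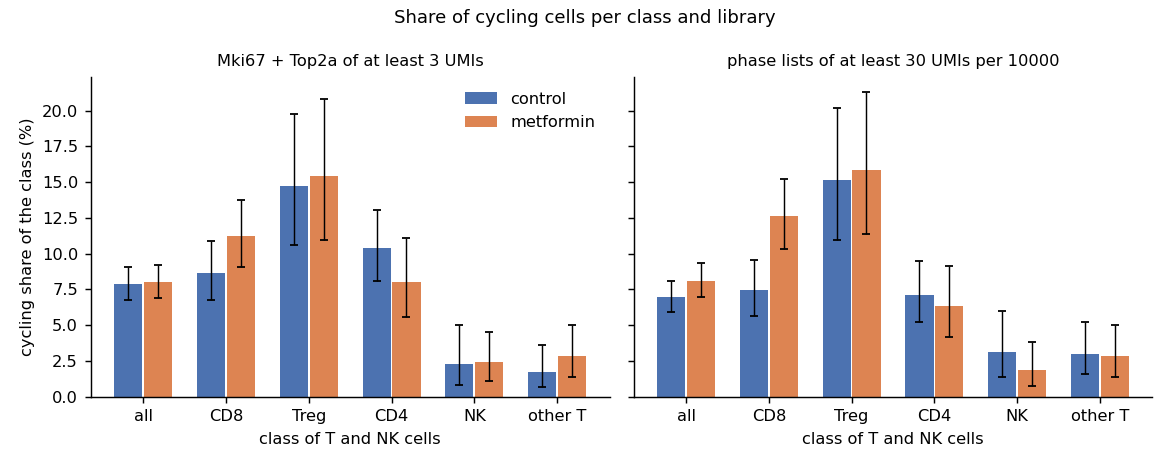
Bars give the cycling share of each class in percent, control in blue and metformin in orange, by the Mki67 and Top2a rule (left) and by phase list UMIs (right), with exact 95% intervals. Treg bars are the highest in both panels, at 14.7% to 15.9%, and the CD8 bars differ more in the right panel.

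Among all cells selected as cycling, phase-poor ones included, CD4 cells took a smaller share in metformin. For CD8 cells the interval of the ratio held 1. CD8 cells were 65 of 179 cycling cells in control (36.3%) and 83 of 171 in metformin (48.5%, ratio 1.34, 0.955 to 1.88). CD4 cells were 64 (35.8%) and 33 (19.3%), a ratio of 0.540 (0.343 to 0.834). The interval reached 1 with at least 5 UMIs of Mki67 and Top2a (0.538), and the ratio was 0.498 (0.254 to 0.938) among phase-rich cells, which were 31 of the 64 and 16 of the 33. Resting CD4 cells also took a smaller share in metformin, 19.2% against 26.3% of resting cells (ratio 0.729, 0.638 to 0.832). Treg cells were 20.7% and 20.5% of cycling cells, and NK cells 3.35% and 5.26%, although NK cells were 12% and 18.6% of resting cells.

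Among selected cells, the G2/M share differed between the libraries in CD8 cells. In Treg cells the pooled UMIs and the single cells gave different pictures. In cycling CD8 cells, the S list stood at 4426 CPM in control and 4452 CPM in metformin (ratio 1.01, 0.971 to 1.04), while the G2/M list stood at 3197 and 5165 CPM (ratio 1.62, 1.55 to 1.68). G2/M UMIs were 41.9% of the phase UMIs of CD8 cells in control and 53.7% in metformin. The difference was also seen cell by cell: the median G2/M share of cells with at least 5 phase UMIs after thinning to 3662 UMIs was 33.3% in control (quartiles 18.8 and 63.6, 49 cells) and 49.8% in metformin (20.0 and 79.1, 66 cells). Cells with a G2/M share of at least 80% numbered 5 and 16. The Mki67 and Top2a threshold left out 13 of 56 phase-rich CD8 cells in control and 31 of 93 in metformin. Over all classes, such cells held mostly S list UMIs. Their part in the CD8 difference was not tested. In Treg cells the G2/M list was lower in metformin, 5891 against 4389 CPM (ratio 0.745, 0.711 to 0.781), with the S list at 4174 and 4160 CPM. The median share per Treg cell was 45.8% in control (32 cells) and 40.0% in metformin (30 cells), the mean 45.1% and 43.3%, and the median number of G2/M UMIs after thinning 9 and 11, the other direction. In CD8 cells that median was 5 and 9. CD4 cells had G2/M shares of 47.1% and 49.6%. Over all selected cells the share was 49.6% and 52.5%, and as a mean over cells, in which phase-poor cells count fully, 37.7% and 41.0%.

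**Figure D3:**
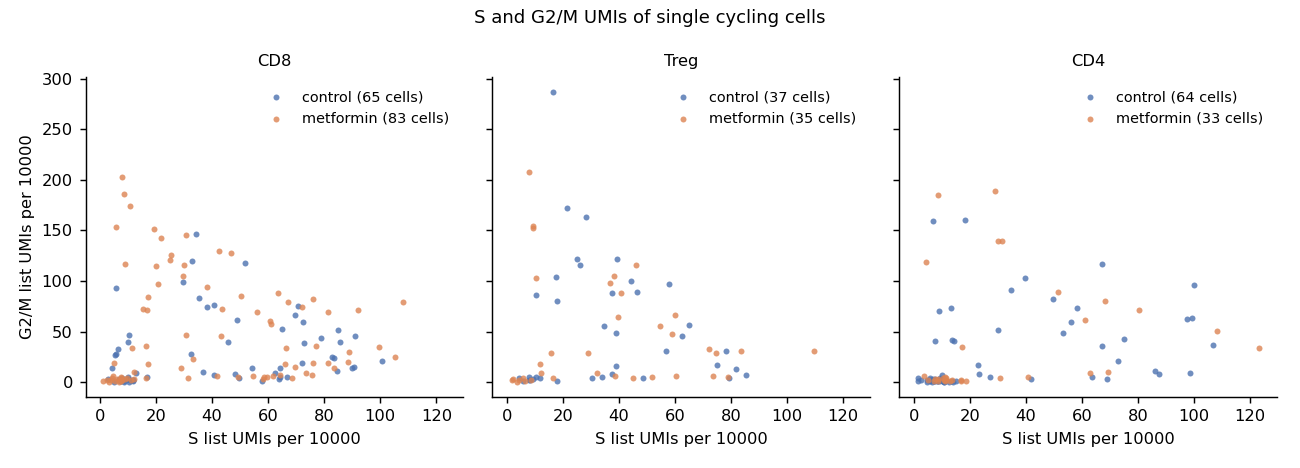
Each point is 1 cycling cell, with S list UMIs per 10000 on the x axis and G2/M list UMIs per 10000 on the y axis, control in blue and metformin in orange. In CD8 cells, the highest control cell is at 147 G2/M UMIs per 10000 and the highest metformin cell at 203. Phase-poor cells of both libraries sit near the origin.

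Cycling and resting CD8 cells were set side by side within each library, a description since the rule chose on this contrast. A gene was called where it differed at least 2-fold the same way in both libraries, with at least 100 CPM and 20 UMIs on the higher side. Of 1412 genes so measured, 107 (7.58%) were higher in cycling CD8 cells and 8 (0.567%) lower. The cycle lists, brakes and G1 cyclins included, held 60 of the 107, counted with Mki67 and Top2a, which chose the cells. The share of such genes among all measured genes was not counted, here or in the other classes. All 5 measured helicase and licensing genes were higher (median log2 ratios 2.52 in control and 2.31 in metformin, against 0.20 and 0.20 for all measured genes). So were all 10 genes of DNA synthesis, 5 of 5 of nucleotide synthesis, 6 of 6 mitotic cyclins and kinases (4.08 and 4.54), 8 of 8 kinetochore genes (5.03 and 5.09), 8 of 8 spindle genes and 6 of 6 replication histones. Of the condensin and mitotic chromatin list 10 of 11 were higher. Other cycle lists were not: 0 of 10 G1 cyclin and growth entry genes were higher, and 0 of 5 cell cycle brakes, with 1 lower. Cdk1, the mitotic kinase, stood at 126 CPM in cycling against 3.88 CPM in resting control CD8 cells, and at 208 against 6.85 CPM in metformin. Rrm2, which makes deoxynucleotides, stood at 212 against 2.75 CPM and at 246 against 6.26 CPM.

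Outside these lists, the leading genes, ranked by the smaller of the library ratios, included replication and chromatin genes. Pclaf, a PCNA partner, led in CD8 cells with 538 against 6.14 CPM in control and 630 against 15.2 CPM in metformin. Asf1b, a histone chaperone, followed with 120 against 2.75 CPM and 111 against 4.92 CPM. Ezh2, the methyltransferase of the Polycomb complex, was 3.90 and 5.24 times higher in cycling CD8 cells, Dek, a chromatin protein, 3.02 and 3.29 times, and the histone variant H2afv 3.03 and 3.6 times. The others were Lockd, Siva1, Alyref, Csrp1 and Rpa3, at 2.98 to 5.46 times. Pclaf and Ezh2 were called in Treg and CD4 cells too. Pclaf stood at 502 and 390 CPM in cycling Treg cells against 8.19 and 5.26 CPM in resting ones, and at 308 and 361 CPM in cycling CD4 cells against 6.74 and 4.78 CPM.

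The 8 genes lower in cycling CD8 cells included quiescence and interferon genes. Klf2, which keeps T cells quiescent and circulating, stood at 98.6 against 232 CPM in control and 61.8 against 246 CPM in metformin. Il7r, the receptor for the survival cytokine IL-7, was at 0.445 and 0.427 of its resting level. Ifit1 and Ifit3, interferon-induced antiviral genes, were at 0.362 and 0.376, and at 0.423 and 0.370. Emb, Gramd3 and Neurl3 were at 0.355 to 0.498, and the eighth was the transcript Gm2682. None of 10 measured glycolysis genes and none of 32 of mitochondrial complex I passed 2-fold in both libraries. Their medians were shifted up in CD8 cells, by log2 0.73 and 0.92 for glycolysis and 0.34 and 0.50 for complex I, against 0.20 for all genes.

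Phase-rich CD8 cells were compared with phase-poor resting CD8 cells to see which state they were in. Genes of naive and progenitor T cells were low in both libraries. Tcf7, the factor of stem-like T cells, stood at 25.6 against 118 CPM in control (ratio 0.216, 0.133 to 0.333) and 13.0 against 99.8 CPM in metformin (0.130, 0.0801 to 0.201). Lef1 was at 0.242 and 0.270, and S1pr1, the exit receptor, at 0.213 and 0.224 of the resting level. Bcl2, a survival gene, was at 0.511 and 0.297. Of the activation and growth genes looked at, some were high in both, and they were picked after their values were seen: Ifng at 2.48 (2.18 to 2.81) and 2.39 (2.17 to 2.62) times, Ctla4 at 1.77 and 2.28, the costimulatory receptor Tnfrsf4 at 2.25 and 2.71, Tnfrsf9 at 2.36 and 2, the IL-2 receptor chain Il2ra at 1.95 and 2.18, the transferrin receptor Tfrc at 3.84 and 3, and Ldha, lactate dehydrogenase, at 1.92 and 2.27. Others were near or below their resting level or differed between libraries: Icos at 1.09 and 1.15, Tnfrsf18 at 1.11 and 0.973, Myc at 0.618 and 0.873, and Nr4a1, an early receptor-signal gene, at 0.744 and 1.54. Gzmb, the main killer protease, was at 1.14 and 1.47.

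Treg cells shared only some of these values. In phase-rich Treg cells Il7r was at 0.319 and 0.177 of the resting level, Bcl2 at 0.260 and 0.302, and Ldha at 1.92 and 2.09. Ikzf2, a partner of Foxp3, was at 0.536 and 0.705. Most of the activation and growth genes named above were near or below the resting Treg level: Tnfrsf4 was at 0.542 and 0.792, Tnfrsf9 at 0.771 and 0.761, Ifng at 0.140 and 0.276, and Ctla4 at 0.699 and 1.02. So were Il2ra at 0.852 and 1.04, Icos at 0.661 and 0.737, Tnfrsf18 at 0.538 and 0.781, Myc at 0.714 and 0.795, and Nr4a1 at 0.591 and 0.633. Tfrc was at 0.997 and 2.53. Foxp3 is not compared, since at least 1 UMI of it was required of every Treg cell and resting ones were shallower. In phase-rich CD4 cells Klf2 was at 0.265 and 0.182, Il7r at 0.315 and 0.260, and Ldha at 1.43 and 1.5. Tcf7 differed between libraries there: 148 against 150 CPM in control (0.986, 0.774 to 1.24) and 28.5 against 167 CPM in metformin (0.170, 0.0775 to 0.326), from 82 and 9 UMIs.

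**Figure D4:**
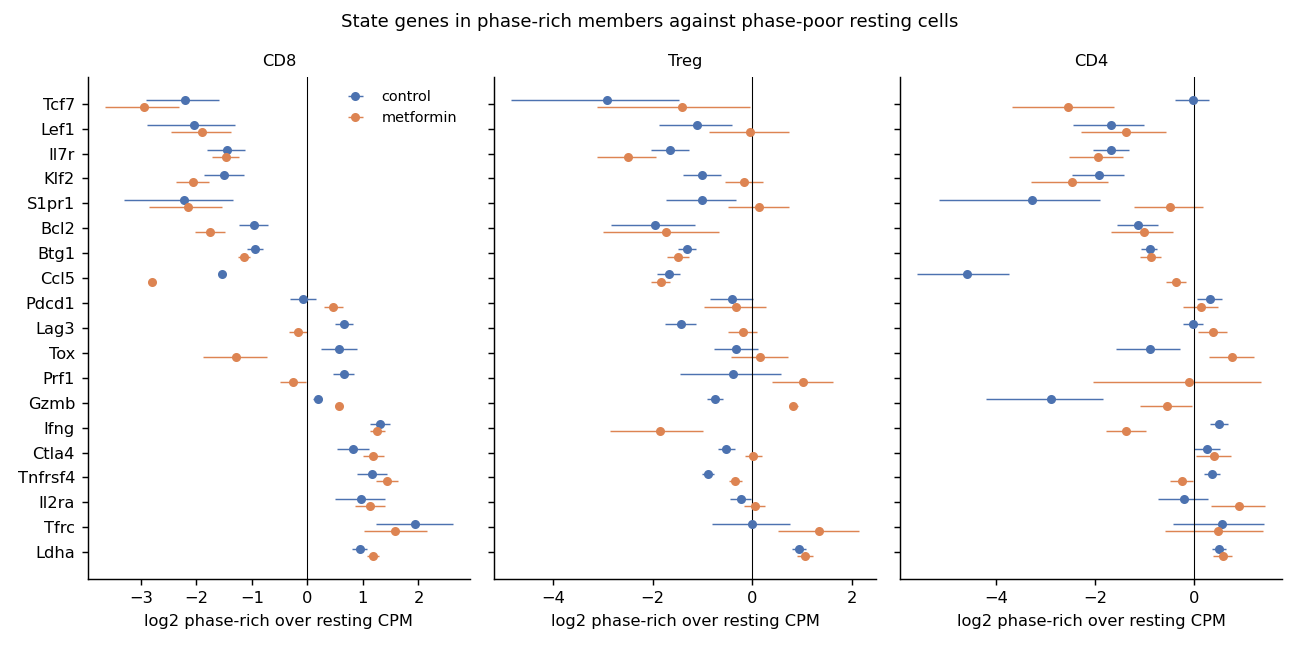
Points give the log2 ratio of CPM in phase-rich selected cells over phase-poor resting cells for state genes (rows) in CD8, Treg and CD4 cells, control in blue and metformin in orange, with 95% counting intervals; genes with 3 or fewer UMIs in a group have no point. In CD8 cells Tcf7 to Ccl5 lie left of 0 and Ifng to Ldha right of 0 in both libraries, while Lag3, Tox and Prf1 lie on different sides.

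Between the libraries, cycling CD8 cells differed in effector and mitotic genes. A gene was called where it differed at least 1.5-fold, with an interval without 1, at least 100 CPM and 20 UMIs on the higher side, and still at least 1.5-fold without its richest cell. Of 1508 genes, 44 (2.92%) were higher in metformin and 29 (1.92%) lower. Ccl5, a chemokine of effector T cells, stood at 5410 CPM in control and 2113 CPM in metformin cycling CD8 cells (ratio 0.391, 0.375 to 0.407). Its per-cell median was 4380 CPM in control (quartiles 687 and 8587) and 564 CPM in metformin (111 and 4053), so the libraries overlapped but the middle of the metformin cells lay below the lower quartile of control. Resting CD8 cells differed little in Ccl5, at 9305 and 9115 CPM (ratio 0.980). B cells, which should lack Ccl5, had 83.8 and 154 CPM, with a UMI in 24.0% and 30.5% of cells.

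The Ccl5 difference was found among phase-rich CD8 cells (3271 and 1366 CPM, 0.418, 0.395 to 0.442) and, smaller, among phase-poor ones (11376 and 6691 CPM, 0.588, 0.555 to 0.623). Lag3, an inhibitory receptor, stood at 486 and 228 CPM in cycling CD8 cells (0.469, 0.412 to 0.533), with per-cell medians of 242 and 122 CPM, and at 283 and 243 CPM in resting ones. Prf1, the pore-forming protein perforin, stood at 348 and 122 CPM (0.350, 0.296 to 0.414), with medians of 102 and 55.8 CPM. Resting CD8 cells also had less Prf1 in metformin, at 206 and 135 CPM (0.655). Tox, a factor of chronic stimulation, stood at 108 and 32.5 CPM from 121 and 61 UMIs (0.299, 0.216 to 0.411), and at 76.3 and 43.1 CPM in resting cells. It was lower in phase-rich CD8 cells (95 and 30 UMIs, ratio 0.161, 0.103 to 0.244) and not in phase-poor ones (26 and 31 UMIs, 1.33, 0.765 to 2.34). Gzmc, a granzyme, stood at 114 and 28.2 CPM (0.248), and at 47.0 and 14.5 CPM in resting cells (0.307), but in phase-rich cells at 41.4 and 31.6 CPM (0.763, 0.485 to 1.21). Not every effector gene was low: Gzmb stood at 1704 and 2044 CPM (1.20), Ifng at 356 and 443 CPM (1.25), and Pdcd1, the PD-1 receptor, at 235 and 233 CPM (0.990). Of the checkpoint list 4 of 10 measured genes were lower and 0 higher (median log2 -0.45, against 0.03 for all genes), and of the cytotoxic list 3 of 18 lower and 0 higher.

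**Figure D5:**
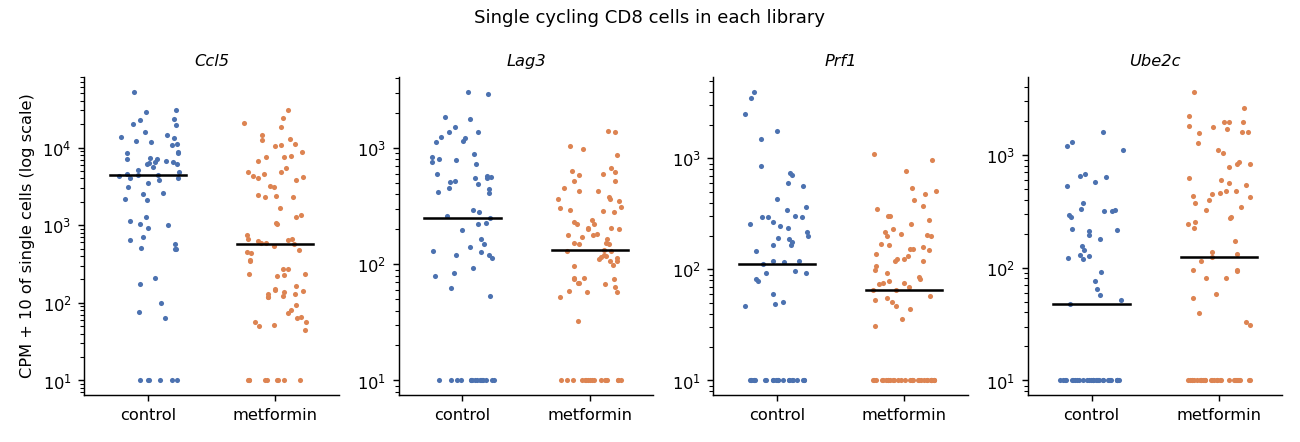
Each point is 1 cycling CD8 cell, 65 in control and 83 in metformin, with CPM plus 10 on a log y axis for Ccl5, Lag3, Prf1 and Ube2c; black lines are medians. Ccl5 medians are 4380 and 564 CPM, and Ube2c medians 37.5 and 114 CPM, with wide overlap of the cells.

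Mitotic genes were higher in metformin cycling CD8 cells. Of the G2/M list 9 of 18 measured genes were higher and 0 lower (median log2 0.61), and of the S list 0 of 18 either way (0.03). In resting CD8 cells the medians of the same genes were 0.24 and 0.14, against 0.02 for all genes. Ube2c, which works with the anaphase-promoting complex, stood at 222 and 523 CPM (2.35, 2.05 to 2.72), with a UMI in 33 of 65 and 53 of 83 cells. Cdc20, its activator, stood at 66.3 and 154 CPM (2.32), Hmmr, a spindle protein, at 52.9 and 124 CPM (2.34) and Nusap1 at 127 and 230 CPM (1.81). Within phase-rich CD8 cells Ube2c was 2.05 times higher (1.78 to 2.37). The phase-rich level counts the G2/M list, so this ratio is a description. In resting CD8 cells Ube2c stood at 13.6 and 17.6 CPM (1.30). Hmgb2, a chromatin protein, stood at 2396 and 3730 CPM (1.56). Glycolysis (0 of 10 called, median log2 0.18) and complex I (0 of 33, 0.21) had no gene past the rule.

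In cycling Treg cells pooled levels of mitotic genes were lower in metformin. Of 1655 measured genes 63 (3.81%) were higher in metformin and 51 (3.08%) lower, a split that became 97 higher and 126 lower when totals left out cycle, mitochondrial and ribosomal genes. Without the class II and myeloid-bearing cells described below, 38 of the 63 and 36 of the 51 were kept, and in phase-rich cells 36 and 34. Of the G2/M list 7 of 21 were lower and 0 higher (median log2 -0.40, against -0.02 for all genes). Ube2c stood at 636 and 316 CPM (0.496, 0.420 to 0.585), with a UMI in 21 of 37 and 18 of 35 cells and per-cell medians of 43.7 and 43.2 CPM, Cdc20 at 185 and 82.5 CPM (0.445) and Nusap1 at 277 and 154 CPM (0.556). Phgdh, the first enzyme of serine synthesis, stood at 360 and 152 CPM (0.423, 0.333 to 0.534), with per-cell medians of 268 and 134 CPM, and at 81.3 and 73.0 CPM in resting Treg cells. In phase-rich Treg cells it stood at 408 and 173 CPM (0.424, 0.330 to 0.540). Gzmb, chosen after its values were seen, stood at 772 and 3041 CPM (3.94, 3.6 to 4.31), with per-cell medians of 89.5 and 433 CPM, and at 986 and 1926 CPM in resting Treg cells.

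Other Treg differences rested on few cells. Cx3cr1, a chemokine receptor, had 115 and 11 UMIs in 14 and 7 cells (0.129, 0.0629 to 0.240). Ifit3 had 110 UMIs in 3 control cells and 13 in 7 metformin cells, and in phase-rich Treg cells 0 and 10 UMIs, the opposite direction. Cxcl10, an interferon-induced chemokine, stood at 354 and 88.8 CPM, but in phase-rich cells at 75.5 and 59.7 CPM (0.792, 0.491 to 1.26). In cycling against resting Treg cells, 97 of 1591 genes (6.1%) were higher and 24 (1.51%) lower in both libraries. Cycle list genes, counted with Mki67 and Top2a, were 58 of the 97. Besides Pclaf and Ezh2, the named higher genes were Siva1, Alyref, Dtymk, H2afv, Dbi, Rangap1, Anapc5 and Selenoh, at 2.86 to 4.42 times. Among the lower ones, Il7r stood at 110 against 272 CPM and 90.4 against 285 CPM, Nt5e, the ectoenzyme CD73, at 104 against 242 CPM and 82.5 against 181 CPM, and the nuclear RNA Malat1 at 12154 against 35002 CPM and 14313 against 31683 CPM. Ankrd12, Ypel3, Ifit1, Trp53inp1, Rinl, Ctla2a and Trim12a stood at 0.300 to 0.461 of their resting level.

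Class II and myeloid genes gave another set of calls, and a few cells held many of their UMIs. A cycling cell with at least 10 UMIs of H2-Aa, H2-Ab1 and H2-Eb1, or of Lyz2, Cd14, S100a8, S100a9 and Il1b, was found 5 times among 179 in control (1 CD8, 1 Treg, 1 CD4 and 2 other T) and 10 times among 171 in metformin (2 CD8, 4 Treg, 1 CD4, 1 NK and 2 other T). Among resting cells there were 27 and 36, that is 1.29% and 1.83%. In CD8 cells H2-Ab1 was 5.29 times, H2-Aa 4.57 times, H2-Eb1 2.77 times and Cd74 3.49 times higher in metformin; these encode the class II molecules of antigen-presenting cells. Without such cells, H2-Aa stood at 18.3 and 17.2 CPM (0.938, 0.518 to 1.74), H2-Eb1 at 17.4 and 19.4 CPM, Cd74 at 37.6 and 45.5 CPM and H2-Ab1 at 14.7 and 27.7 CPM. In Treg cells H2-Aa was 23.8 times, H2-Ab1 14.2 times, H2-Eb1 23.0 times, Lyz2 20.9 times and Il1b 13.5 times higher in metformin. Without such cells H2-Eb1 had 18 and 9 UMIs (0.754, 0.298 to 1.77), Il1b 6 and 4 UMIs (1.01), and Lyz2 9 and 11 UMIs. Of the dendritic cell list all 13 genes in metformin and 12 of 13 in control had a UMI in some cycling cell, with summed levels of 0 to 42766 CPM and 0 to 34735 CPM per cell (medians 418 and 431 CPM), and Cd209a at 0 in control. Of the monocyte and neutrophil list 9 of 10 in metformin and 10 of 10 in control had one, at 0 to 7207 CPM and 0 to 23261 CPM. Leaving out cells by these genes lowers the same genes by construction, so the values without such cells are descriptions. Why these genes differed between the libraries was not tested.

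Cycling CD4 cells differed between the libraries in replication histones and interferon gamma, among others. Of 1523 genes 36 (2.36%) were higher in metformin and 57 (3.74%) lower, and 29 and 31 of these were kept in phase-rich cells. RNA of other cell types moved with this comparison: the B cell list stood at 532 CPM in control and 59.9 CPM in metformin cycling CD4 cells, with 0 to 46226 CPM and 0 to 439.6 CPM per cell, 7 and 3 of its 10 genes seen, and Pax5 at 0 in both. The plasma cell list stood at 149 and 47.2 CPM, with up to 8777 CPM in a control cell. Their part in the CD4 calls was not tested. All 6 measured replication histones were higher (median log2 1.54, against 0.02 for all genes), while in CD8 cells 4 of 10 were higher and in Treg cells 0 of 8. These RNAs encode histones, which package new DNA in S phase. Histone RNAs without a poly(A) tail are caught poorly by 3' chemistry. Hist1h2ap stood at 112 and 436 CPM (3.89, 3.08 to 4.94) in 20 of 64 and 15 of 33 cells, Hist1h2ae at 117 and 447 CPM, Hist1h2ab at 24.3 and 111 CPM, and Hist1h1b, the linker histone, at 107 and 196 CPM. In phase-rich CD4 cells, 31 and 16 of them, Hist1h2ap stood at 184 and 752 CPM (4.08, 3.22 to 5.19). Histone genes of this cluster are near-identical copies, so their split is uncertain. The S list gave 1 of 15 higher (0.06) and the G2/M list 2 of 13 (0.32).

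Ifng, the type 1 helper cytokine, stood at 784 CPM in control and 194 CPM in metformin cycling CD4 cells (742 and 107 UMIs, 0.248, 0.2 to 0.304), and at 370 and 438 CPM in resting ones. It came from 31 of 64 and 22 of 33 cells, with per-cell medians of 0 and 53.1 CPM, so the control level was held by a minority of cells. In phase-rich CD4 cells it stood at 523 and 171 CPM (0.328, 0.240 to 0.440). Ifitm1, an interferon-induced membrane protein, stood at 837 and 238 CPM, in 29 and 9 cells. Ccl1, a chemokine, had 223 and 30 UMIs in 21 and 3 cells. The genes lowest in metformin by rank were Cd14 and Il1b, of myeloid cells. Cd14 had 98 UMIs in 3 control cells and 0 in metformin, and Il1b 127 and 3 UMIs; without the class II and myeloid-bearing cells they had 2 and 0, and 10 and 3 UMIs. Ccl5 (224 and 282 UMIs) and Gzma (50 and 117 UMIs in 11 and 4 cells) were called higher in metformin CD4 cells. Without their richest cells the ratio was 11.9 for Ccl5 and 8.08 for Gzma, so single cells weigh heavily in them. In phase-poor CD4 cells the direction of both was the opposite (Ccl5 0.478, Gzma 0.0726).

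Cycling against resting CD4 cells, 61 of 1416 genes (4.31%) were higher and 4 (0.282%) lower in both libraries. The cycle lists, counted with Mki67 and Top2a, held 41 of the 61. Outside the lists the named genes were Pclaf, Lockd, Ezh2, H2afv, Phgdh, Selenoh, Rad21, Rangap1, Dek and Nucks1. Phgdh stood at 149 against 50.7 CPM in control and 160 against 51.7 CPM in metformin. The lower ones were Klf2 (82.5 against 210 CPM and 107 against 247 CPM), Ccl4, a chemokine (76.1 against 260 CPM and 56.3 against 321 CPM), Ccl1 and Slfn5, a growth-restraining gene of the Schlafen family (74.0 against 155 CPM and 61.8 against 124 CPM). Btg1, an antiproliferative gene, missed 2-fold in CD4 cells at 753 against 1106 CPM and 726 against 1030 CPM.

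NK cells gave 15 cycling cells, too few for a gene comparison. In metformin 8 of 9 had at most 1 UMI of Cd3d, Cd3e and Cd3g, and all 9 had a UMI of Klrb1c (NK1.1) and of Klre1. In control 2 of 6 had at least 2 UMIs of Trdc, and 3 of 6 had at least 2 UMIs of Trac, the T cell receptor α chain, against 4.37% of 252 resting NK cells. In metformin 0 of 9 did. Gzma, a granzyme at 5066 and 5054 CPM in resting NK cells, had 2 UMIs in the 6 control cells and 388 in the 9 metformin cells. Of their phase UMIs 64.5% and 26.4% were G2/M, in so few cells that no order is read. Other T cells gave 7 and 11, of which 3 and 1 had at least 2 UMIs of Trdc, the γδ receptor chain.

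Class borders were not sharp. Of cycling CD8 cells 12.3% in control and 13.3% in metformin had a Foxp3 UMI, against 2.91% and 5.35% of resting CD8 cells, which were shallower. After thinning to 3662 UMIs the shares were 6.15% and 9.64% of cycling and 2.34% and 3.33% of resting CD8 cells. In B cells, which should lack Foxp3, a Foxp3 UMI was found after the same thinning in 0.408% of 490 control cells and in 0 of 187 metformin cells, which by a floor of 3 counts allows a share of up to 1.60%. Their median depths before thinning were 5613.5 and 5136 UMIs. A Cd4 UMI was found in 10.8% and 18.1% of cycling CD8 cells against 5.82% and 5.35% of resting ones, and 1 UMI of Cd8a or Cd8b1 in 18.9% and 20% of cycling Treg cells against 10.7% and 15.6% of resting ones. Such cells were kept in the first class whose rule they met.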

How the data were processed

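Each library is a deposited matrix of raw UMI counts for 31053 genes, made with Cell Ranger (matrix software 3.0.0, per the file headers) on mm10, per the submitters' processing notes, which also name Seurat. No annotation of cells was used, so classes were rebuilt from marker counts and may differ from the authors'. The libraries held 49651404 and 47142356 UMIs. UMIs were summed over cells of a class and given as CPM of all UMIs of those cells, with exact Poisson intervals for ratios and Clopper-Pearson intervals for shares (95%). Median log2 ratios were taken with 0.5 UMI added. Cells were thinned to 3662 UMIs where depths differ. Doublets were scored with Scrublet (scanpy 1.11.5, expected 5%), and marked cells were kept and left out in an alternative. NumPy 2.4.6, SciPy 1.17.1 and Matplotlib 3.10.9 were used, and the scripts were tested on simulated data. Promoters came from RefSeq (GRCm38.p6).

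Genes named by rank were, per class, up to 10 in each direction between cycling and resting cells, outside the cycle lists and ordered by the library ratio nearest to 1, and 5 in each direction between libraries, ordered by the interval bound nearest to 1. Receptor segment, mitochondrial, ribosomal, sex-linked and predicted genes were left out of the ranks. List members were named by their summed UMIs, and other genes named were chosen after their values were seen. Classes with at least 20 cycling cells per library were compared gene by gene. The members and all lists were chosen with earlier results of these data known. The phase-rich level and the class II and myeloid rule were added after seeing the data. Alternatives were other thresholds and filters, Cdk1 and Birc5, thinning, other totals, means over cells and lower minimums. A result that needs a withheld item is not reported here.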

Additional observations from a re-analysis of the deposited data

How the results depend on the processing

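No paired analysis was possible because each group has 1 library. The cycling share of all T and NK cells (metformin over control) became 1.32 and that of CD8 cells 1.85 with at least 2 UMIs of Cdk1 and Birc5. The CD4 share of cycling cells was 0.538 with at least 5 UMIs of Mki67 and Top2a, with an interval that reached 1. The G2/M share over all cycling cells was 37.7% in control and 41.0% in metformin as a mean over cells, 51.8% and 55.3% with at least 5 UMIs, 47.0% and 50.1% with at least 2, and 50.7% and 53.3% in phase-rich cells. Minimums of 50 CPM and 10 UMIs tested more genes and gave 184 higher and 17 lower in cycling CD8 cells, 185 and 39 in Treg and 119 and 13 in CD4. Between libraries they gave 109 higher and 107 lower in CD8, 161 and 149 in Treg and 120 and 129 in CD4. Totals without cycle, mitochondrial and ribosomal genes, which also let more genes pass the minimum, gave 68 and 64 in CD8, 97 and 126 in Treg and 83 and 93 in CD4, with 20 and 12 lower than in resting cells in CD8 and CD4. Phase-rich cells alone gave 164 higher and 21 lower than resting cells in CD8, 59 lower in Treg, 133 higher and 27 lower in CD4, and 108 higher in metformin in CD4; means over cells gave 13 lower in Treg. Of the 44 and 29 CD8 genes called between libraries, 26 and 17 were kept in phase-rich cells and 36 and 27 without class II and myeloid-bearing cells. Of the 63 and 51 in Treg cells 36 and 34, and 38 and 36, were kept, and of the 36 and 57 in CD4 cells 29 and 31, and 33 and 50. The log2 ratio of H2-Aa in CD8 cells turned to -0.10 and that of H2-Eb1 in Treg cells to -0.37 without those cells, and that of Ifit3 in Treg cells to 4.96 in phase-rich cells, with 0 control UMIs. The thinned NK share gave no finite value. Beyond what these constructions show, the cause was not tested.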

Other observations

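T cell receptor V segments, chosen after their values were seen, differed between the libraries in CD8 cells. With at least 2 UMIs as the criterion, Trav3-3 was found in 14 of 83 cycling (16.9%, 9.54 to 26.7) and 32 of 654 resting (4.89%) metformin CD8 cells, and in 1 of 65 and 1 of 687 control cells. Trav5-4 was found in 6 of 65 cycling (9.23%, 3.46 to 19.0) and 27 of 687 resting (3.93%) control CD8 cells, and in 0 of 83 (upper bound 4.35%) and 2 of 654 metformin cells. Cycling CD8 cells were deeper than resting ones, with medians of 20769 against 9485.5 UMIs in metformin and 15205 against 8418 UMIs in control. Deeper cells reach 2 UMIs more easily, and no shares at 1 depth are given. The cycling and resting shares are therefore not compared. Any Trav segment reached 2 UMIs in 12 of 65 and 24 of 83 cycling CD8 cells, so most cells gave no segment. Without the cells bearing either segment, Ccl5 stood at 0.373, Prf1 at 0.312 and Lag3 at 0.479 of the control level. Trbc1, a receptor constant region, stood at 974 and 303 CPM in cycling CD8 cells (0.312, 0.281 to 0.345) and at 925 and 619 CPM in resting ones.

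Outside the T and NK gate, 73 cells in each library had at least 3 UMIs of Mki67 and Top2a. They included 20 of 1359 (1.47%) and 26 of 1180 (2.20%) cells with C1q UMIs above the gate, and 8 of 534 (1.5%) and 2 of 210 (0.952%) B cells.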
